A study of Mus musculus with 13 samples.

Results

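The layer 6b-like spots are 60 of the 1973 capture spots in 2 mouse brain sections, and they were chosen by the levels of 4 genes. Spots with at least 2000 counts were ranked within each section, S4 and S8, by the summed CPM (counts per 1000000 counts of the spot) of Ccn2, Nxph3, Rai14 and Nr4a2. The 30 highest of 1017 such spots in S4 and the 30 highest of 946 in S8 were kept. They were compared with the remaining 987 and 916 spots of the same sections. The animals were wild type and the labels name no treatment, age or sex. Each section was 10 µm thick, frozen, stained for NeuN and DAPI, and placed on a Visium slide, whose spots capture RNA from a small patch of tissue. The labels do not say whether the sections came from separate animals, so each p-value from the spots measures the spread between these 2 sections. A spot can hold several cells of different types, so more cells of a type and more RNA per cell cannot be told apart. The same series holds 765 dissociated neurons of the retrosplenial cortex from 3 wild-type B6 animals, which were used here for 1 comparison.

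Layer 6b is the deepest layer of the cortex and lies on the white matter. Many of its neurons are survivors of the subplate, a transient zone of the developing cortex that guides incoming axons. Its cells project within the cortex and to higher-order thalamus and are known for receptors of arousal-related transmitters. The retrosplenial cortex is the part of the cingulate region that links hippocampus, thalamus and neocortex. Of the selecting genes, Ccn2 encodes a secreted matrix protein and is a classic layer 6b marker. Nxph3 encodes a neurexophilin, a secreted ligand of alpha-neurexins. Nr4a2 encodes an orphan nuclear receptor that also marks the claustrum. Rai14 encodes an actin-associated ankyrin repeat protein.

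Depth was alike in the layer 6b-like spots and all other spots. The layer 6b-like spots held a median of 8262 counts in S4 and 7084 in S8, and the other spots 8273 and 6706.5. In all, the layer 6b-like spots gave 254778 counts in S4 and 213185 in S8, against 8177064 and 6172907 in the other spots. With every spot thinned to 2000 counts, the median number of detected genes was 1321 and 1235.5 against 1276 and 1245. Mitochondrial transcripts took 8.18% and 8.23% of counts, against 11% and 9.36%. The sections themselves differed in the share of counts of the predicted gene Gm42418, which was 2.12% in S4 and 8.56% in S8 among layer 6b-like spots and 2.41% and 8.45% elsewhere. The libraries shared 162 spot barcodes, but no layer 6b-like spot had the barcode of 1 in the other section.

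The values that chose the spots are given as a description. Nr4a2 stood at 498 CPM in S4 and 478 in S8 in the chosen spots, against 55.9 and 59.3 in the others. Ccn2 stood at 247 and 319 CPM against 14.8 and 18.6. Nxph3 stood at 94.2 and 122 CPM against 16.9 and 22.03. Rai14 stood at 165 CPM in S4 but only 46.9 in S8, against 10.0 and 5.99. Nr4a2 gave 48.1% and 49.5% of the summed CPM and was the leading gene in 19 and 15 of the spots, so it weighed most in the choice. At least 2 of the 4 genes were detected in 29 spots of S4 and 25 of S8, all 4 in 9 and 2, and a single gene in 1 and 5. The choice rested on 4 to 14 counts of the 4 genes per spot in S4 and 2 to 11 in S8. The last spot inside the limit had 740 summed CPM in S4 and 661 in S8, and the first outside it 730 and 659, so the limit cut a continuous series.

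**Figure D1:**
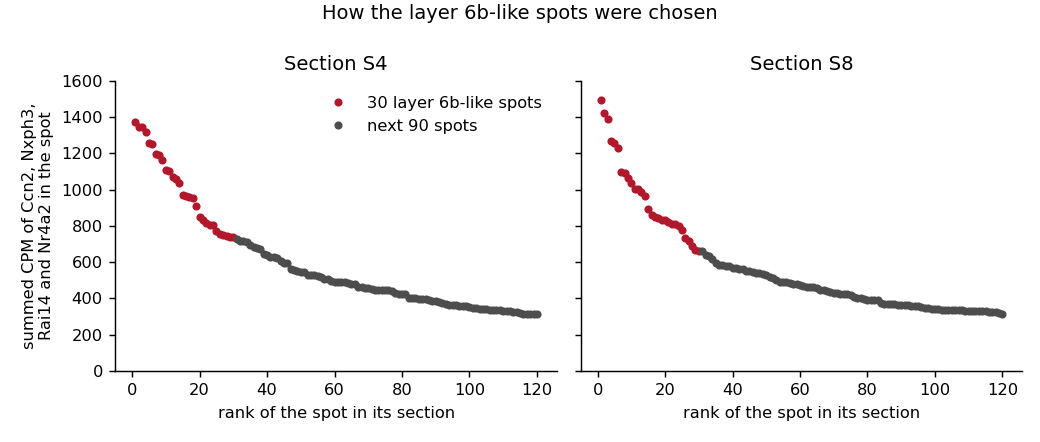
Summed CPM of Ccn2, Nxph3, Rai14 and Nr4a2 (y axis) in the 120 highest spots of each section by rank (x axis), 1 point per spot. The 30 chosen spots (red) pass into the others (grey) without a gap, at 740 against 730 CPM in S4 and 661 against 659 in S8.

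The choice was also repeated with each of the 4 genes left out in turn. The levels of the left-out gene are given as a description with no test, since the 4 genes had been put together with earlier results of these data known. In spots chosen by the other 3, Ccn2 stood at 151 CPM in S4 and 155 in S8, against 17.8 and 24.3 elsewhere. Rai14 stood at 102 and 27.9 CPM against 11.98 and 6.64, with only 6 counts in S8. Nxph3 stood at 86.0 and 107 CPM against 17.1 and 22.5, and Nr4a2 at 255 and 186 against 63.8 and 69.5. Of the 60 spots, 43 were chosen again without Ccn2, 55 without Nxph3, 50 without Rai14 and 36 without Nr4a2, so dropping Nr4a2 changed the set most. These other choices are used below to show which other genes keep their calls. The share of all genes tested that was called higher under them was 0.611% without Ccn2, 0.992% without Nxph3, 1.1% without Rai14 and 0.987% without Nr4a2. These shares include the left-out gene itself, while the numbers of calls given further below leave it out.

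Outside the selecting genes, 12288 genes were tested against all other spots of the section by edgeR's quasi-likelihood test with the section as a block, and a call is a Benjamini-Hochberg adjusted p under 0.05. The number called higher was 121 (0.985% of those tested) and the number called lower was 155 (1.26%). At an unadjusted p under 0.05 there were 1370 genes. These numbers depend on the test. DESeq2 called 33 higher and 20 lower, spots thinned to 2000 counts gave 6 and 2, and without the section block, which pairs the sums of 1 section, 24 and 16 were called. Scaling by library totals alone turned the balance to 155 higher and 121 lower.

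Cplx3, which encodes complexin 3, a SNARE-binding regulator of vesicle release and a known layer 6b gene, rose most among the named genes. It stood at 165 CPM in S4 and 164 in S8, against 16.8 and 17.5 in the other spots, a log2 fold change of 3.21 with an SE of 0.26 and, by edgeR, an adjusted p of 2.05e-31. It had a count in 20 of 30 layer 6b-like spots of S4 and 12 of 30 of S8, against 104 of 987 and 84 of 916 other spots. At an equal depth of 2000 counts the shares were 30% (exact 95% interval 14.7% to 49.4%) and 26.7% (12.3% to 45.9%), against 2.43% and 2.84%. Cplx3 and Pcp4, among the 41 genes followed through every alternative setting, were the ones that stayed called wherever an adjusted p was given.

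The layer 6b or subplate list held 12 genes besides the selecting genes. It had been put together with earlier results of these data known, so its direction is not independent evidence. Of 11 tested, 4 rose and none fell, with a median log2 fold change of 1.08 against -0.05 over all genes tested. Hs3st4, a heparan sulfate sulfotransferase, stood at 302 CPM in S4 and 211 in S8 against 67.9 and 57.8 (log2 1.98, SE 0.17). It had a count in 30 of 30 layer 6b-like spots in S4 and 21 of 30 in S8. Drd1, the D1 dopamine receptor, stood at 31.4 and 28.1 CPM against 5.75 and 5.02 (2.40, SE 0.57). Nxph4, a relative of Nxph3, stood at 11.8 and 23.5 CPM against 1.71 and 2.43 (2.99, SE 0.76), on 3 and 5 counts. With spots chosen without Ccn2 its log2 fold change was 1.37 (SE 1.13) and the call was lost. The other 7 did not pass the test. Lpar1, a lysophosphatidic acid receptor, had a log2 fold change of 1.28 (SE 0.45), Tmem163 of 1.08 (SE 0.47), Moxd1 of 0.71 (SE 0.80), Inpp4b of 0.39 (SE 0.86) and Kcnab1 of 0.04 (SE 0.22). Svil and Mgst1 each had a single count in the layer 6b-like spots. Hcrtr2, an orexin receptor known from layer 6b, had no count in them and was too low to test, with 19 and 3 counts in all other spots.

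Other genes that rose were not on that list. Glra2, a glycine receptor subunit, stood at 78.5 CPM in S4 and 46.9 in S8 against 13.9 and 11.7 (log2 2.25, SE 0.39). Grik3, a kainate receptor subunit, stood at 161 and 113 CPM against 37.1 and 36.1 (1.86, SE 0.24). Mdga1, a membrane-anchored immunoglobulin protein that binds neuroligins, stood at 27.5 and 37.5 CPM against 5.63 and 8.10 (2.19, SE 0.55). In each of these genes both sections lay above both values of the other spots. Sulf1, an extracellular sulfatase that edits heparan sulfate, stood at 39.2 and 32.8 CPM against 5.99 and 5.18 (2.63, SE 0.53). It was on the layer 6 intratelencephalic list of 5 genes, where the other 4 did not pass the test. The median log2 fold change of that list was -0.02. Sema5b, a semaphorin, stood at 54.9 and 42.2 CPM against 8.93 and 9.23 (2.38, SE 0.45). Gnb4, a G protein subunit also known from the claustrum, stood at 82.4 and 117 CPM against 29.4 and 24.1 (1.81, SE 0.29). Lypd6b had a log2 fold change of 1.93 (SE 0.46). Senp8 had 7 and 5 counts and a log2 fold change of 1.93 (SE 0.59), with an edgeR adjusted p of 0.0498 that did not hold in 10 of the alternative settings. With spots chosen without Ccn2, Sulf1 (log2 1.91, SE 0.63) and Lypd6b (1.59, SE 0.50) lost their calls, and with spots chosen without Nr4a2 Mdga1 did (1.43, SE 0.64).

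**Figure D2:**
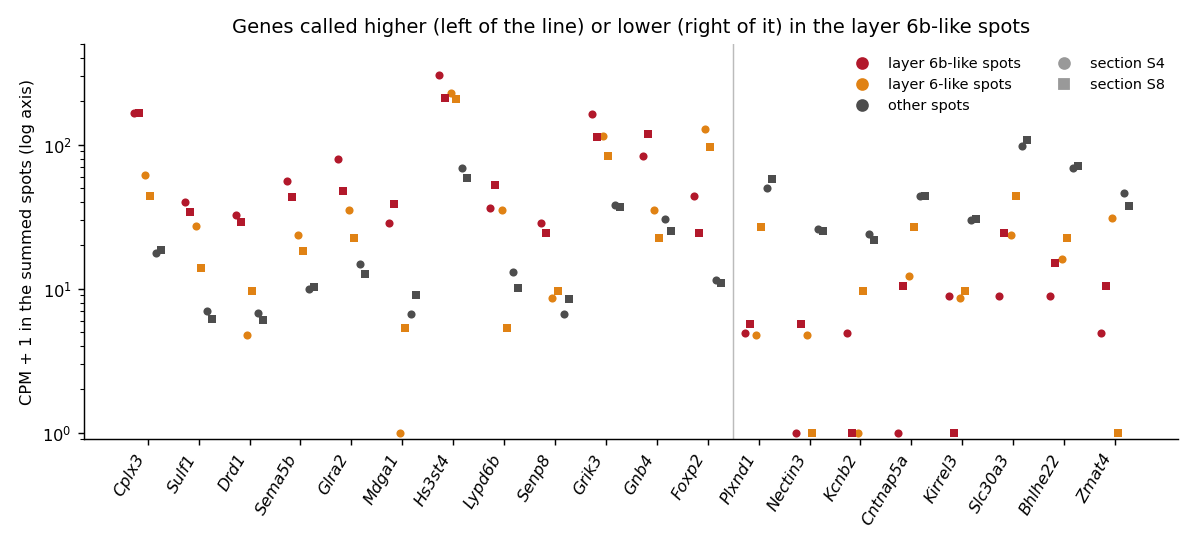
CPM + 1 on a log axis for the 12 genes called higher and the 8 called lower with the largest log2 fold changes, in the summed layer 6b-like (red), layer 6-like (orange) and other spots (grey) of S4 (circles) and S8 (squares). Cplx3 stood at 165 and 164 CPM in the layer 6b-like spots of the 2 sections against 16.8 and 17.5 in the other spots, while Foxp2 was highest in the layer 6-like spots, which were chosen partly by it.

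Genes of the layer above were also higher than in the rest of the sections. Of 8 layer 6 corticothalamic genes, 4 rose and none fell, with a median log2 fold change of 0.93. Tle4, a transcriptional corepressor, stood at 161 and 136 CPM against 49.7 and 51.4 (log2 1.51, SE 0.21, and 0.93 with spots chosen without Ccn2). Foxp2, a forkhead transcription factor, had a log2 fold change of 1.69 (SE 0.50), Rprm of 0.90 (SE 0.21) and Tbr1, a T-box factor of deep-layer neurons, of 0.85 (SE 0.15). Ntsr1 and Crym, with log2 fold changes of 0.19 (SE 0.85) and 0.30 (SE 0.16), did not pass the test. Genes known from the claustrum or endopiriform nucleus rose in 3 of 4 tested: besides Gnb4, these were Synpr, a synaptic vesicle protein, at 192 and 174 CPM against 96.1 and 83.1 (0.97, SE 0.18), and Lxn, a carboxypeptidase inhibitor (0.80, SE 0.22). With spots chosen without Nr4a2, Synpr (0.07, SE 0.22) and Lxn (0.18) lost their calls and Gnb4 was at 1.15 (SE 0.33). Pan-excitatory Slc17a7, the vesicular glutamate transporter, was at 895 and 910 CPM against 756 and 814 and did not pass the test. Of 6 excitatory neuron genes tested, 1 rose and 2 fell. Neurod6, a transcription factor of excitatory neurons, rose to 220 and 239 CPM from 67.3 and 71.9 (1.66, SE 0.17). Nrgn fell, at 1637 and 1768 CPM against 2173 and 2666 (-0.56), as did Camk2a, at 232 and 413 against 434 and 553. The summed level of the 6 genes was 3171 and 3466 CPM against 3569 and 4240. Of 5 layer 5 extratelencephalic genes, 1 rose and 4 did not pass the test. The 1 that rose, Pcp4, a calmodulin-binding peptide, went to 1248 and 1262 CPM from 615 and 577 (1.02, SE 0.10). Its level was higher still in the layer 6-like spots described below, at 1924 and 1713 CPM. That difference did not pass the test (-0.54, SE 0.16), so the rise of Pcp4 is not particular to the layer 6b-like spots.

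Genes of upper layers and of the retrosplenial region were among those that fell. Of 7 superficial-layer genes, 3 fell and none rose, with a median log2 fold change of -1.28. Calb1, a calcium-binding protein, stood at 47.1 and 65.7 CPM against 216 and 167 (log2 -1.85, SE 0.23). Lamp5 stood at 39.2 and 79.7 CPM against 173 and 183 (-1.68, SE 0.23), and Rasgrf2 had a log2 fold change of -1.28 (SE 0.25). Slc30a3, the transporter that loads synaptic vesicles with zinc, stood at 7.85 and 23.5 CPM against 96.1 and 107 (-2.81, SE 0.37). It had a count in 2 and 3 of 30 layer 6b-like spots against 478 of 987 and 419 of 916 others. Rorb, a layer 4 gene, stood at 11.8 and 18.8 CPM against 46.6 and 45.2 (-1.67, SE 0.46). Bhlhe22, a transcription factor, had 2 and 3 counts, with a log2 fold change of -2.74 (SE 0.45). Of the 4 retrosplenial genes, Tshz2 and Zmat4 fell and Nnat rose. Tshz2 stood at 3.92 and 23.5 CPM against 50.3 and 55.6 (-2.09, SE 0.46). Nnat, a small membrane protein gene, stood at 581 and 380 CPM against 219 and 234 (1.04, SE 0.12, and 0.60 with spots chosen without Nr4a2). Other calls depended on the choice of genes. Rorb lost its call without Nr4a2 (-1.08) and Tshz2 without Ccn2 (-1.07), and Bhlhe22 kept its call at -1.46 without Ccn2.

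Some genes called lower were close to absent from the layer 6b-like spots, so their fitted fold changes are replaced here by ratios. Plxnd1, a semaphorin receptor, had 2 counts in all, a ratio of 0.0813 to the other spots (95% counting interval 0.0098 to 0.295). For Cntnap5a, a contactin-associated protein, the ratio was 0.0992 (0.0120 to 0.360). For the adhesion genes Nectin3 and Kirrel3 it was 0.0871 (0.0022 to 0.489) and 0.147 (0.0177 to 0.533), for the potassium channel gene Kcnb2 0.0967 (0.0024 to 0.543), and for Zmat4 0.155 (0.0318 to 0.454). Ptgfrn, Syt2, Stard8 and Igfn1 had no count. Against a floor of 3 counts over both sections they were at least 3.58-fold, 2.98-fold, 2.58-fold and 2.29-fold lower. The calls of Kcnb2 and Kirrel3 were lost with spots chosen without Ccn2 or without Nr4a2, that of Nectin3 without Ccn2 or without Nxph3, and that of Cntnap5a without Nr4a2.

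Relatives and partners of the selecting genes moved in both directions. Of 10 tested, 1 rose, 2 fell and 7 did not pass the test. Nxph4 rose, and Nrxn2, which encodes a neurexin, stood lower at 98.1 and 150 CPM against 147 and 235 (log2 -0.67, SE 0.18). Ccn3, of the same family as Ccn2, was at 263 and 230 CPM against 220 and 191 (0.20, SE 0.15). Nr4a1 and Nr4a3, the activity-induced relatives of Nr4a2, had log2 fold changes of -0.41 (SE 0.16) and -0.04 (SE 0.34). Of the modulatory receptors described in layer 6b, 8 of 12 were tested and only Drd1 rose. Htr1f, a serotonin receptor, had a log2 fold change of 2.42 (SE 0.90) and Adra2a, an adrenergic receptor, of 0.88 (SE 0.39), and neither passed the test. Among 13 genes tested of an axon guidance and matrix list, none rose and Epha4, an ephrin receptor, fell (-1.43, SE 0.24). Sema5b and Sulf1, which rose, were not on that list.

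Markers of other cells moved with these results. Of 10 oligodendrocyte genes, 8 rose and none fell, with a median log2 fold change of 0.97. Mbp, which encodes myelin basic protein, stood at 1970.3 and 2083 CPM against 995 and 1064 (log2 0.92, SE 0.10). With spots chosen without Ccn2 its log2 fold change was 0.33 (SE 0.12) and the call was lost. The summed level of the list was 4663 CPM in S4 and 5516 in S8 against 2291 and 2795. In S4 the median layer 6b-like spot was also higher, at 2501 CPM against 1688 in the median other spot. In S8 the median was not higher, at 1614 CPM against 1644, so the rise there rested on few spots. The highest layer 6b-like spots reached 25991 CPM in S4 and 36342 in S8. Of 8 astrocyte genes, 2 fell, and of 8 inhibitory neuron genes 3 fell, among them Pvalb (-1.35, SE 0.23) and Vip (-1.47, SE 0.35). No gene of the microglia, vessel, meninges, blood or immediate early gene lists passed the test. Of 6 thalamus and habenula genes none rose and Calb2 fell, with summed levels of 39.2 and 61.0 CPM against 126 and 128. Of 6 hippocampus genes Fibcd1 was called higher, at 102 CPM in S4 and 14.1 in S8 against 33.4 and 15.2, which is higher in S4 alone. Mitochondrially encoded genes fell in 8 calls, from mt-Nd4l (-0.66) to mt-Cytb (-0.34). The part of these in the gene differences above was not tested.

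Layer 6-like spots served as the nearest comparison. They were the 30 remaining spots of each section with the highest summed CPM of Foxp2, Gadd45a, Rprm and Syt6, and the 8 genes that chose either kind are left out. These spots were somewhat deeper, with median totals of 8793.5 in S4 and 7786.5 in S8 against 8262 and 7084. Their mitochondrial share was 9.44% and 7.83% against 8.18% and 8.23%. Of 4953 genes tested, 19 were higher in the layer 6b-like spots (0.384%) and 13 lower (0.262%), with 426 at an unadjusted p under 0.05. All 32 had the same direction in both sections. DESeq2 called 1 higher and none lower (44 at an unadjusted p under 0.05), scaling by library totals alone left 2 and 2, and omitting the section block that pairs the sums left 2 and 1. None of the 10 oligodendrocyte genes passed the test, with a median log2 fold change of 0.04 and summed levels of 4663 and 5516 CPM against 4294 and 6226. The median spot, however, held less of them among the layer 6b-like spots, at 2501 and 1614 CPM, than among the layer 6-like spots, at 3979 and 4826. The part of this in the differences that follow was not tested.

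Cplx3 was higher than in layer 6-like spots too, at 165 and 164 CPM against 60.4 and 43.0 (log2 1.64, SE 0.31, edgeR adjusted p = 0.00821). Nnat differed more firmly, at 581 and 380 CPM against 106 and 125 (2.06, SE 0.23, edgeR adjusted p = 3.84e-06), and it alone of the 18 genes followed here kept its call in every alternative setting. All other spots held Nnat at 219 and 234 CPM, so part of this difference was a low level in the layer 6-like spots. Nrp2, a receptor for semaphorins and growth factors, had 12 and 13 counts, or 47.1 and 61.0 CPM, against 2 and 0 counts, a ratio of 13.3 over both sections (95% counting interval 3.31 to 116) with an edgeR adjusted p of 0.0186. Gnb4 was at 82.4 and 117 CPM against 34.0 and 21.5 (1.79, SE 0.41), and Synpr at 192 and 174 against 60.4 and 73.2 (1.46, SE 0.28). Ccn3 was at 263 and 230 CPM against 71.7 and 90.4 (1.61, SE 0.26). Hrh3, the H3 histamine receptor, was at 102 and 103 CPM against 34.0 and 30.1 (1.65, SE 0.38). Alcam, an adhesion molecule, was at 165 and 84.4 CPM against 37.7 and 43.0 (1.63, SE 0.36). Of these, Ccn3 and Alcam did not pass the test against all other spots, where their levels were 220 and 191 CPM and 141 and 138 CPM.

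In the other direction, Trbc2 was at 58.9 and 42.2 CPM against 181 and 219 in layer 6-like spots (log2 -1.95, SE 0.30). Its name is that of a T cell receptor constant segment, as that of Ighm is of an immunoglobulin segment (-1.65, SE 0.34). Me3, a mitochondrial malic enzyme, had 9 and 3 counts (-2.05, SE 0.41), and Pak7, a kinase, 12 and 5 (-1.69, SE 0.36). Nefm, a neurofilament subunit, was at 82.4 and 93.8 CPM against 257 and 155 (-1.25, SE 0.28), and Igfbp4 and Ier5 had log2 fold changes of -1.23 (SE 0.30) and -1.14 (SE 0.27). In all other spots Trbc2 was at 37.3 and 38.1 CPM and Ighm at 32.2 and 30.5, so the layer 6b-like spots were not below these. Igfbp4 was at 60.9 and 70.5 CPM there, below the layer 6b-like level in S4 alone. Me3, Pak7 and Nefm were higher there in both sections, Nefm at 184 and 211 CPM. Ier5 was at 133 and 113 CPM there, against 74.6 and 113. The immediate early genes Arc and Egr1, induced by neuronal activity, were lower than in layer 6-like spots as well. Arc stood at 114 and 286 CPM against 355 and 684 (-1.39, SE 0.20), and Egr1 at 286 and 497 against 498 and 813 (-0.75, SE 0.18). Against all other spots neither passed the test, with log2 fold changes of -0.37 (SE 0.16) and -0.08 (SE 0.13). Hs3st4 and Tle4, with log2 fold changes of 0.24 (SE 0.21) and -0.02 (SE 0.25), did not separate the kinds of spot. Grik3 (0.48, SE 0.27), Glra2 (1.15, SE 0.45) and Sema5b (1.25, SE 0.52) were higher in both sections but did not pass this test. The same held for Neurod6 (0.90, SE 0.25) and Lxn (1.07, SE 0.34). Of 4 blood genes tested, 3 were higher in the layer 6b-like spots, among them Hbb-bs at 487 and 1520 CPM against 151 and 904, with a summed list level of 781 and 3002 CPM against 328 and 1532. The median layer 6b-like spot had 0 and 245 CPM of that list and the highest 9200 and 53867, and the part of blood in the other differences was not tested.

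**Figure D3:**
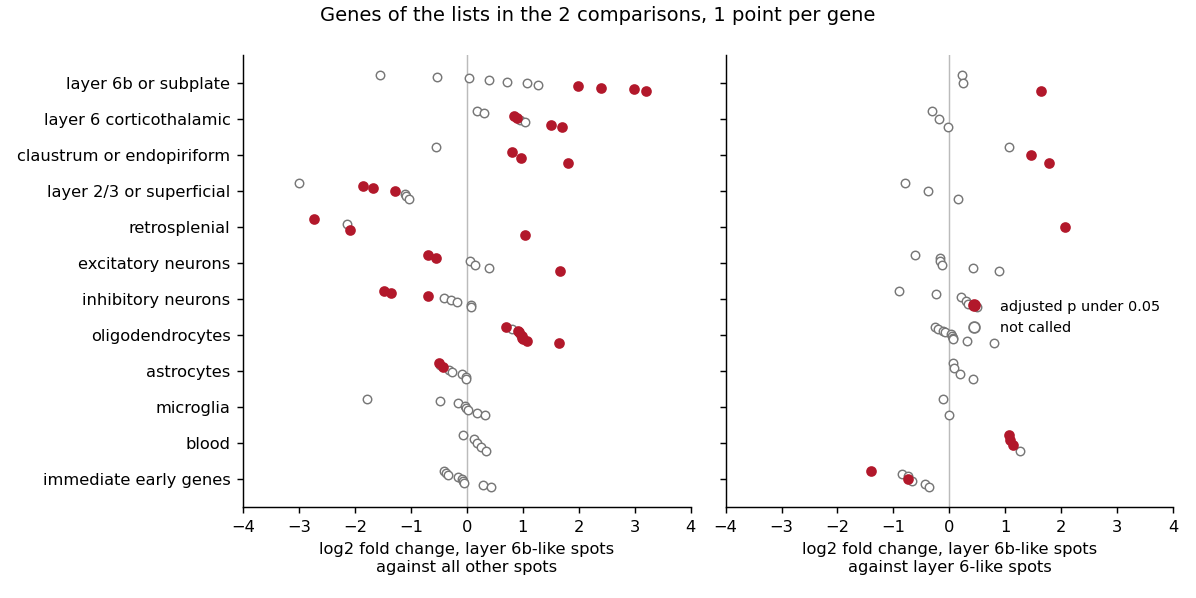
Log2 fold changes (x axis) of the genes of 12 lists (y axis), 1 point per gene tested, for layer 6b-like against all other spots (left) and against layer 6-like spots (right), where the genes that chose either kind are left out. Filled points passed the test. Oligodendrocyte genes, with a median of 0.97 on the left, had a median of 0.04 on the right, where Cplx3 of the layer 6b list was still at 1.64.

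The layer 6b-like spots were not uniform. In each section, 23 of the 30 had a Ccn2 count and 7 had none, and the other genes are given for these sets as a description with no test. Cplx3 stood at 203 CPM in S4 and 206 in S8 in the spots with Ccn2. In the spots without Ccn2 it had 1 count among 53035 in S4 and none among 43522 in S8, which allows up to 3 counts. Synpr had the opposite pattern, at 99.1 and 130 CPM with Ccn2 and 547 and 345 without it, in 6 of 7 spots of each section. Nnat stood at 669 and 442 CPM with Ccn2 and 245 and 138 without. Mbp stood at 2171 and 2281 CPM with Ccn2 and 1207 and 1309.7 without. Nr4a2 stood at 481 and 413 CPM with Ccn2 and 566 and 735 without, where it had a count in 7 of 7 spots of S4 and 6 of 7 of S8; these levels follow from the choice, since spots without Ccn2 had to be high in the sum of the other 3 genes. Hs3st4 stood at 312 and 242 CPM with Ccn2 and at 264 and 91.9 without it. Drd1, also of the layer 6b list, went the other way, at 24.8 and 23.6 CPM with Ccn2 and 56.6 and 46.0 without. The latter values rest on 3 and 2 counts. Gnb4 stood at 79.3 and 88.4 against 94.3 and 230 CPM. Cplx3 was thus found almost wholly in the spots with Ccn2, while Synpr, of the claustrum list, stood higher in the spots without Ccn2 in both sections.

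**Figure D4:**
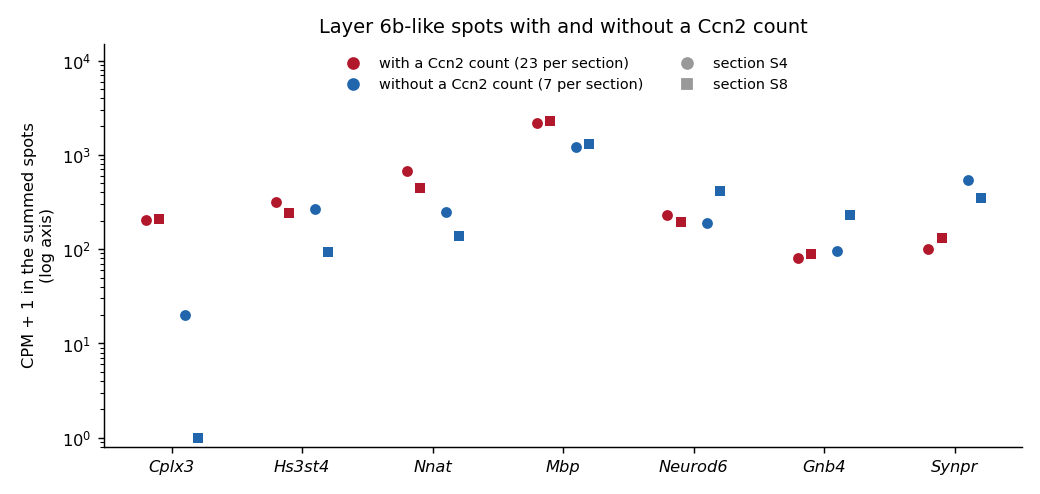
CPM + 1 on a log axis of 7 genes in the summed layer 6b-like spots with a Ccn2 count (red, 23 per section) and without one (blue, 7 per section), for S4 (circles) and S8 (squares). Cplx3 stood at 203 and 206 CPM with Ccn2 and had 1 and 0 counts without it, whereas Synpr stood at 99.1 and 130 CPM with Ccn2 and at 547 and 345 without.

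The same 4 genes were then used to pick cells among the dissociated neurons, 5 per animal and 15 of 765 in all, which were summed and compared with the other cells of the animal. The cells differed between animals. The chosen cells had median totals of 22038, 234097 and 117922 counts in animals 1, 2 and 3. The other cells had 66176, 132210 and 186536, and the part of depth in the differences was not tested. Ccn2 stood at 1072 CPM in the chosen cells of animal 1 and 677 in animal 2, but at 32.4 in animal 3, where Nr4a2 led with 380 CPM. Cplx3, no selecting gene, stood at 1800 and 1940 CPM in the chosen cells of animals 1 and 2, in 3 of 5 and 5 of 5 cells, against 3.41 and 5.54 in the rest (log2 7.77 over the 3 animals, SE 0.85, edgeR adjusted p = 8.37e-05). Without animal 1 that p was 0.0679. In animal 3 it was at 0 in the 5 chosen cells and at 0.184 CPM in the rest. Of 11624 genes tested with the animal as a block, 8 were higher (0.0688%) and 24 lower (0.206%), with 1281 at an unadjusted p under 0.05. Without animal 3 the numbers were 52 and 75, and without animal 1 they were 1 and 9. Without the animal block, which pairs the sums of 1 animal, 0 were higher and 2 lower.

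Cplx3, Pcp4 and Sez6 were called higher in both the spots and the cells. Pcp4 stood at 3000 CPM, 2643 and 742 in the chosen cells of animals 1, 2 and 3, against 533, 295 and 195 (log2 2.44, SE 0.31, edgeR adjusted p = 0.0004). Sez6, a membrane protein of dendrites, stood at 472, 405 and 241 CPM against 122, 91.6 and 64.7 (1.92, SE 0.37), and its edgeR adjusted p of 0.0221 became 0.163 without animal 1 and 0.111 without animal 2. Drd1 was higher in 3 of 3 animals, at 68.9, 131 and 63.3 CPM against 3.79, 5.14 and 2.80, with an edgeR adjusted p of 0.0559 that was 0.0096 without animal 3. Called lower in both were Calb1, Slc30a3, Lamp5, Rgs4, Nrgn, Mef2c, Epha4, Cacng3, Dkkl1, Igfbp6, Nrep and Rtn4rl1. Slc30a3 stood at 4.92, 0.98 and 2.94 CPM in the chosen cells against 173, 245 and 277 (-6.79, SE 0.72). Calb1 stood at 0, 0.98 and 2.94 CPM against 143, 210 and 366. Both were low in the chosen cells of every animal, including animal 3.

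Of 110 genes called higher in the spots and tested in the cells, 82 (74.5%) were also higher in the chosen cells, where 27.1% of all genes tested in both assays were higher. Of 136 called lower, 126 (92.6%) were lower in the cells, against 72.9% of all genes. The cell comparison was shifted as a whole, with a median log2 fold change of -0.57 over all genes tested in it. Without animal 3 the shares were 73.6% and 89.0%, against 31.1% and 68.9% of all genes. Synpr did not follow: it was at 0 in the chosen cells of all 3 animals, against 69.9, 52.0 and 44.6 CPM in the rest, while it rose in the spots under the choice by all 4 genes. Mbp stood at 29.5, 13.7 and 88.3 CPM in the chosen cells against 97.7, 105 and 79.8, and Nnat at 4.92, 14.7 and 0 against 18.3, 20.2 and 7.63. Neither passed the test in the cells.

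**Figure D5:**
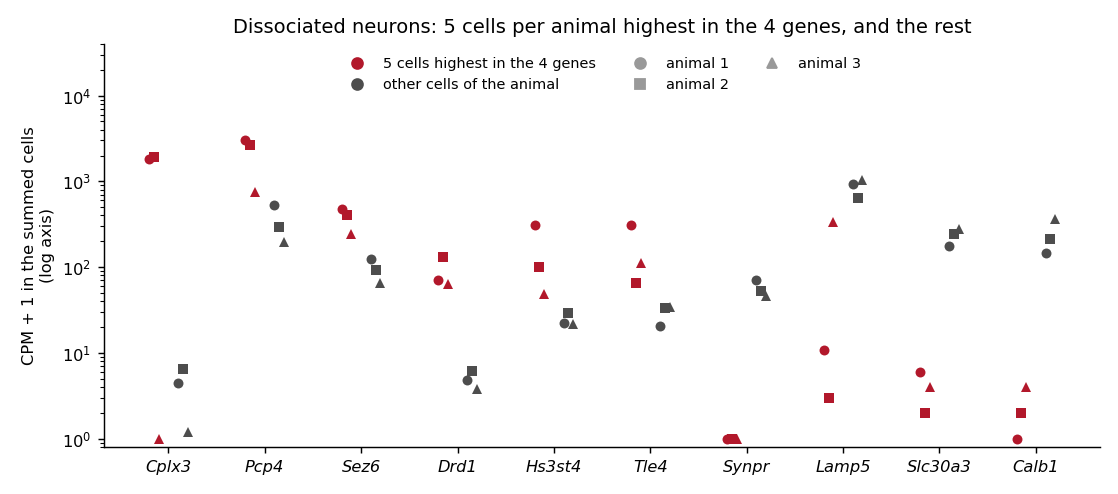
CPM + 1 on a log axis of 10 genes in the 5 cells of each animal highest in the 4 selecting genes (red) and in the other cells of that animal (grey), 1 symbol per animal. Cplx3 stood at 1800 and 1940 CPM in animals 1 and 2 and at 0 in animal 3, while Slc30a3 and Calb1 were low in the chosen cells of all 3 animals.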

How the data were processed

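The authors deposited whole-number counts per gene for 1973 Visium spots (32285 genes) and for 765 dissociated neurons (15114 genes). Per the submitters' processing notes, Seurat, Space Ranger and the builds mm10 and NCBIM37 were used; the aligner, filters and whether cell counts are reads or molecules are not given in the sources used here. Each spot's column names its library, S4 or S8, and which labelled section each is was not used. A deposited table gives the animal of each cell. No count column was without a sample (0).

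Counts were summed per section or animal and compared by the quasi-likelihood test of edgeR 4.0.16 (R 4.3.3), after filterByExpr and TMM scaling, with section or animal as a block. The section and the animal pair the sums by construction, since both kinds of spot or cell come from the same one. The SE is the log2 fold change divided by the square root of F, and CPM are counts over summed totals. With 2 sections 1 residual degree of freedom remains per gene, and edgeR borrows the spread over genes. The script was tested on counts simulated with the same spread for every gene and comparison, so that test does not measure error rates in these data. DESeq2 1.42.0, other numbers of spots, other choices, scaling, filters and depth were tried. Exact intervals are 95% and, like floors of 3 counts, cover counting error only. Of the genes of the cell table, 11931 had the same name in the spot table, 1171 matched by a synonym and 2012 did not match. No doublet caller was run. The layer 6b-like name rests on Ccn2, Nxph3, Rai14 and Nr4a2, whose levels are given with no test.

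Named genes are the 12 higher and 8 lower with the largest log2 fold changes among called genes of the same direction in both sections and at least 20 CPM in the higher kind of spot (8 and 8 against layer 6-like spots), without predicted, ribosomal protein and mitochondrial genes. Genes of the lists were named besides. The spots and lists were chosen with earlier results of these data known.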

Additional observations from a re-analysis of the deposited data

Results flagged for a closer look

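Fibcd1, a gene of the hippocampus list, was called higher in the layer 6b-like spots but went in opposite directions in the sections. In S4 the log2 ratio of its CPM to that of the other spots was 1.6120, but in S8 it was -0.1139. The difference between the sections was not tested. It was the single gene among the 121 called higher with this pattern.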

How the results depend on the processing

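Against all other spots, where 121 genes were higher and 155 lower, the counts were 74 and 74 with 20 spots per section, 78 and 64 with at least 4000 counts per spot, and 74 and 74 with spots chosen without Ccn2. DESeq2 gave 33 and 20, no replicate block 24 and 16, thinning to 2000 counts 6 and 2, and a minimum log2 fold change of 1 46 and 88. With the mean of log2(CPM + 1) as the choice, 96 were lower. Against layer 6-like spots (19 and 13), 50 spots per section gave 47 and 40, DESeq2 1 and 0, library totals 2 and 2, and no replicate block 2 and 1, and with no filter on low counts 24 were lower. In the cells (8 and 24), 3 cells per animal gave 13 and 61, 10 cells 15 higher, DESeq2 51 and 149, no filter 20 and 80, and no replicate block 0 and 2. Leaving out each animal gave 1, 5 and 52 higher and from 9 to 75 lower. The cause was not tested.

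Of 554 values of 41 genes against all other spots, 420 kept the call, 134 lost it and 0 changed sign; against layer 6-like spots 68 of 125 kept it, 57 lost it and 0 changed sign. Of 54 values of 6 genes in the cells, 8 lost a call and 4 gained one. Fibcd1 had a log2 ratio of 1.6120 in S4 alone and -0.1139 in S8 alone. DESeq2 gave an adjusted p for 23 of the 41. Each section alone leaves no residual degrees of freedom, so no count of calls could be made. Several named genes rest on under 10 counts per section, and Hcrtr2 was too low to test.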
